A study of Mus musculus with 8 samples.

Results

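The 7 genes described here carry out antigen presentation by MHC class II: Ciita, H2-Aa, H2-Ab1, H2-Eb1, Cd74, H2-DMa and H2-DMb1. They were taken by symbol from the 56749 genes of the feature list, and each matched 1 row in all 8 libraries. The study sequenced single nuclei, sorted on DAPI from frozen visceral white fat of mice, with 10x 3′ chemistry. All 4 groups carried 1 unmodified and 1 modified allele of p21 (Cdkn1a), a cell cycle inhibitor, and each group held 2 mice. The first group had the genotype p21+/mCherry on standard diet (mCherry SD, rep144 and rep146). The second had the same genotype on high-fat diet (mCherry HFD, rep128 and rep129). The third was p21+/mCherry-Tert on high-fat diet (Tert HFD, rep134 and rep136), in which the p21 promoter drives Tert, the catalytic subunit of telomerase. The fourth was p21+/mCherry-TertCi on high-fat diet (TertCi HFD, rep138 and rep140), in which the same promoter drives TertCi, known as a catalytically inactive Tert. The age and sex of the mice were not given in the sources used here, and mice with 2 unmodified p21 alleles were not analysed here. The design text speaks of the stromal vascular fraction, while the sample labels name the whole tissue, and 6887 of the 30209 nuclei kept were adipocyte-like.

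Class II molecules are pairs of an alpha and a beta chain that show peptides from engulfed material to CD4 T cells. Cd74, the invariant chain, holds the groove closed while the pair travels to the endosome, and H2-DM, a pair made of H2-DMa and H2-DMb1, then helps peptides replace its last fragment. Ciita is the co-activator that switches these genes on together, by docking on factors bound to a conserved set of promoter boxes called W, X and Y. Dendritic cells, B cells and macrophages are the classical class II cells, and in obese fat macrophages become the most abundant of them.

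RefSeq promoter windows (GRCm38.p6, 250 bases before to 50 after the start) were at hand for 4 of the 7 members, namely H2-Aa, H2-Eb1, H2-DMa and H2-DMb1; H2-Ab1, Cd74 and Ciita had none in the table used. Both strands were searched for the X box core GNAACT and the Y box TGATTGG, letters chosen after the windows had been read, and the Y box contains CCAAT on its other strand. Windows of H2-Aa, H2-Eb1 and H2-DMb1 held both boxes in this order on the strand of the gene, with 25, 24 and 25 bases between them. They are printed from the 6 bases before the X core to the 6 after the Y box, with the boxes in capitals, since this spacing is what the 3 genes share.
H2-Aa, chr17:34287861-34287910, minus strand: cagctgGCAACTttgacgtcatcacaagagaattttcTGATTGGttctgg
H2-Eb1, chr17:34305770-34305818, plus strand: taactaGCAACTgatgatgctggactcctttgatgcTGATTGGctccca
H2-DMb1, chr17:34153091-34153140, plus strand: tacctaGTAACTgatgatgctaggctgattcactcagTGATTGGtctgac
The first base of the X core lay at -81, -91 and -94 from the start in these 3 windows. Of all 32851 windows, 42.8% held the X core letters, 7.82% held the Y box, and 0.393% held both on 1 strand within 50 bases. H2-DMa had 2 windows: the first held neither box, and the second held the X core letters alone.

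The libraries held 23378488 to 139749876 UMIs (counted transcript molecules), with a median of 1704 to 7253 UMIs per called nucleus. Libraries shared at most 0.348% of the called barcodes of the smaller library. Replicates were not repeat deposits, since their counts differed by more than sampling noise in every group (chi-square per degree of freedom 15.1 to 121.5). The largest of these values belonged to the 2 Tert HFD libraries, which also gave opposite values for several class II genes below. The labels speak of processing in batches of 2 in random order but do not say which mice shared a batch, so no within-batch value could be given. Tert itself lay at 3.52 to 3.89 CPM (UMIs of the gene per 1000000 UMIs) in the 4 mCherry libraries, at 2.32 and 1.39 in Tert HFD and at 2.43 and 2.77 in TertCi HFD. The sources used here do not give the 3′ end of the transgene, so this count cannot check the genotype, and all groups are named as labelled. That replicates are separate animals also rests on the labels, and p-values measure the spread between these samples only.

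Among classes with at least 5 libraries, class II RNA was highest in 2 small populations, followed by general macrophages. Levels are given as CPM of a class of nuclei in a library, over libraries with at least 20 nuclei of that class. Classes were named from marker lists, and the class II genes were left out of the clustering, so that they did not define the classes. Summed over the 7 members, nuclei marked by Cd226 and Skint3 held 2076 ± 737 CPM (SD, n = 6 libraries) and dendritic-like nuclei 1733 ± 637 (n = 5). The Cd226 Skint3 nuclei, 517 in all, had the monocyte marker Ccr2 and no macrophage marker among their leading genes, and were therefore left without a cell type name. By the mean log2 rise of the markers of each list, they nevertheless scored highest on the macrophage list (2.336), followed by the conventional dendritic list (1.432). General macrophage-like nuclei, which led in neither subset list, held 1351 ± 317 CPM (n = 8). Outside mCherry HFD most of them lay in 1 cluster whose general and perivascular scores (the mean log2 rise of the markers of each list) were 3.157 and 3.155, all but tied, and the perivascular markers Cd163 and F13a1 stood among its 10 leading genes. With a finer clustering the cluster led by Cd163 took the perivascular name. Perivascular macrophage-like nuclei, the resident type marked by Lyve1, Folr2 and F13a1, held 753 ± 183 (n = 8), and B-like nuclei 691 ± 452 (n = 5). Lipid-associated macrophage-like nuclei, marked by Trem2, Gpnmb and Lpl, held 515 ± 97.8 (n = 6). Cycling immune nuclei held 639 ± 118 (n = 5), T and NK-like nuclei 310.1 ± 201 (n = 8) and large peritoneal macrophage-like nuclei 202 ± 45.5 (n = 2, both mCherry SD), and monocyte-like nuclei reached 20 in 1 library only, at 2067. Outside the immune classes the sums were 455 ± 169.9 in endothelial-like, 298 ± 137.9 in mesothelial-like, 178 ± 145.8 in progenitor-like and 159.6 ± 50.9 in adipocyte-like nuclei (n = 8 each). Neighbours among the first 6 of these classes overlapped in range, whereas every general macrophage value (845 to 1641) lay above every lipid-associated value (415 to 645). The means rest on unlike sets of libraries. Those of Cd226 Skint3, dendritic-like, lipid-associated and cycling nuclei include no mCherry SD library, and that of B-like nuclei no Tert HFD library. B-like values ran from 260 to 1181 CPM and perivascular values from 517 to 1059. Those of T and NK-like nuclei ran from 139 to 652 and those of progenitor-like nuclei from 54.8 to 448. Barcodes under 100 UMIs, which hold free RNA, gave 50.7 and 77.5 CPM of Cd74 in mCherry SD and 587 and 549 in mCherry HFD. The part of free RNA in the class levels was not tested.

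**Figure D1:**
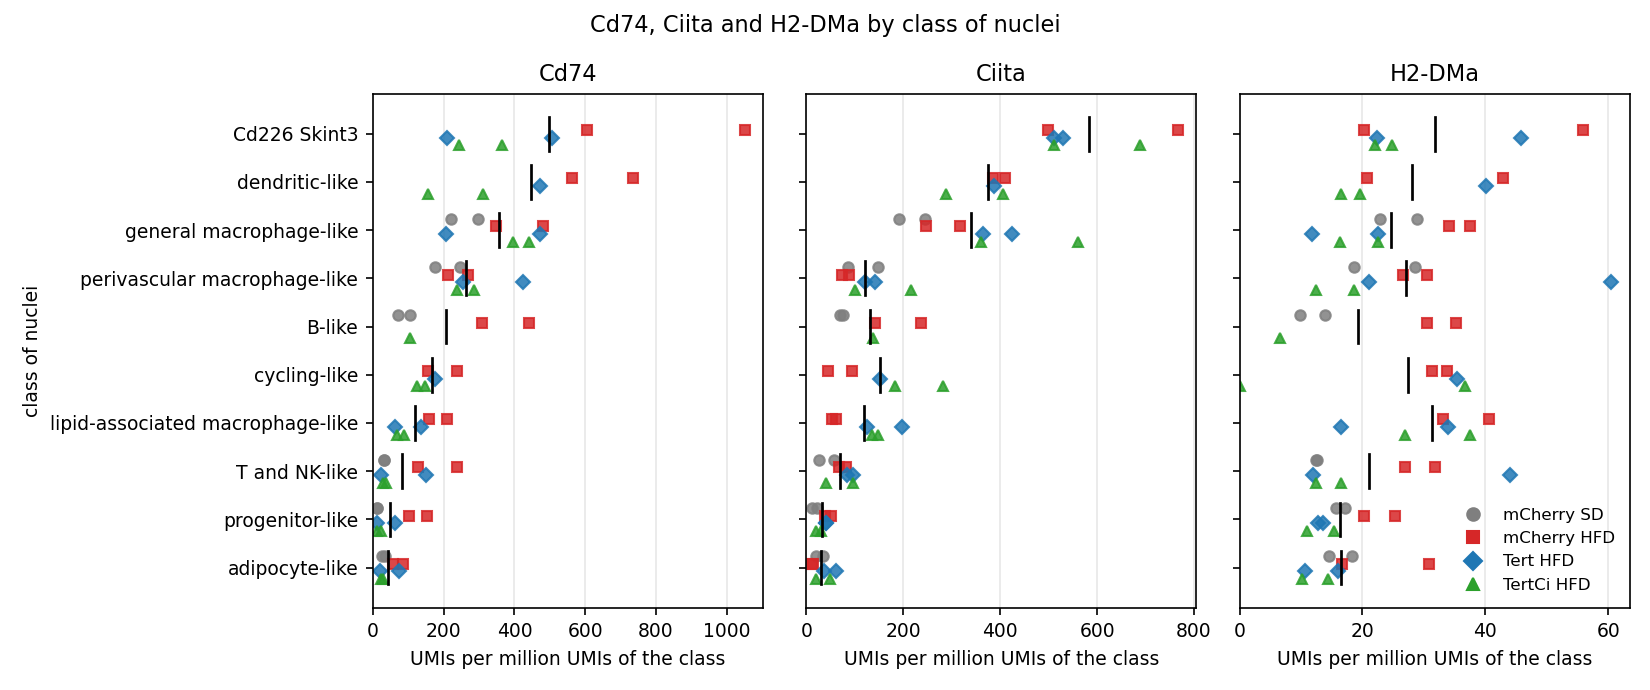
Level of Cd74, Ciita and H2-DMa (x axis, CPM of the class) in each class of nuclei (rows); a point is 1 library with at least 20 nuclei of the class, coloured by group, and a bar is the mean over libraries. Among classes with at least 5 libraries, mean Cd74 runs from 43.6 in adipocyte-like to 497 in Cd226 Skint3 nuclei and mean Ciita from 31.1 to 584, while H2-DMa stays between 0 and 60.5 with overlapping classes.

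After each nucleus was thinned to 1000 UMIs, 78.7% ± 11.7 (SD, n = 6 libraries) of Cd226 Skint3 nuclei had a UMI of any member, 70.5% ± 15.5 (n = 5) of dendritic-like, 65.5% ± 9.02 (n = 8) of general macrophage and 33.6% ± 5.61 (n = 6) of lipid-associated nuclei. Adipocyte-like nuclei gave 12.7% ± 4.14 (n = 8), from 7.97% in TertCi HFD rep138 to 20.6% in mCherry HFD rep128. Adipocytes can themselves express class II genes, so this share is no reference for nuclei that lack them, and no class here was sure to be one. Cd74 in free RNA was 587 CPM in mCherry HFD rep128 and 113 in TertCi HFD rep138, with a lowest value of 50.7 in mCherry SD rep144. The part of free RNA in these shares was not tested. Without thinning the share was 23.6 to 82.5% in adipocyte-like and 48.5 to 91.8% in macrophage-like nuclei, at median depths of 2318 to 12288 and 1348 to 6236 UMIs. Thinning left out 23 macrophage-like and 4 adipocyte-like nuclei.

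Within the same mice, dendritic-like nuclei held more of 5 of the 7 members than macrophage-like nuclei (general, perivascular and lipid-associated together). In the edgeR quasi-likelihood test with the library as a block and 5 libraries, 27.5% of 8658 genes passed an adjusted p of 0.05, 14.1% as higher; such genes are said to be called. Ciita was 2.12-fold higher (log2 1.08, SE 0.19, adjusted p = 0.0013). H2-DMb1, the beta chain of the peptide editor, was 2.02-fold higher, and the chains H2-Ab1, H2-Aa and H2-Eb1 were 1.97-, 1.91- and 1.81-fold higher (adjusted p 0.0014 to 0.024). The H2-Eb1 call was lost without mCherry HFD rep128, mCherry HFD rep129 or TertCi HFD rep138 (highest adjusted p = 0.11). Cd74 (log2 0.57, SE 0.22, adjusted p = 0.083) and H2-DMa (0.03, SE 0.27, adjusted p = 0.96) did not pass.

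The Cd226 Skint3 nuclei, a contrast added after their values had been seen, exceeded macrophage-like nuclei in 6 of 7 members, against 29% of 7612 genes called in either direction and 13% as higher. H2-DMb1 was 4.01-fold higher (log2 2.00, SE 0.14, edgeR adjusted p = 8.8e-10, 6 libraries) and Ciita 2.86-fold (log2 1.51, SE 0.14). H2-Ab1, H2-Eb1, H2-Aa and Cd74 were 2.32-, 2.02-, 2.00- and 1.73-fold higher, while H2-DMa did not pass (log2 0.37, SE 0.21, adjusted p = 0.21). Each of the 6 calls was kept under every alternative setting and with any 1 library left out. The contrast was chosen on these same values, so its p-values are a description.

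B-like nuclei did not differ detectably from macrophage-like nuclei in any member. By edgeR 0 of 7 members passed over 5 libraries, against 26.6% of 6680 genes, with 0 at an unadjusted p under 0.05, and DESeq2 also called 0. The differences ran from -0.59 (H2-Aa, SE 0.31) to 0.51 (H2-DMb1, SE 0.24) on the log2 scale. The direction was not the same in every group: summed over the 7 members, B-like nuclei held 260.3 and 351 CPM against 619 and 854 in macrophage-like nuclei of mCherry SD, 1175 and 1181 against 955 and 839 in mCherry HFD, and 488 against 864 in TertCi HFD rep138. Whether the difference depends on group was not tested. Cd74 in B-like nuclei was 440 and 307 CPM in mCherry HFD, 69.9 and 105 in mCherry SD, and 105 in TertCi HFD rep138. The other high-fat libraries held 2 to 13 B-like nuclei, so no comparison of groups was made. Cd74 among barcodes under 100 UMIs, which hold free RNA, was likewise high in mCherry HFD (587 and 549 CPM) and low in mCherry SD (50.7 and 77.5), and its part in the B-cell values was not tested.

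Of the 7 members, 4 were lower in lipid-associated than in perivascular macrophages of the same mice, and 1 was higher. The test over the 6 high-fat libraries called 43.1% of 8489 genes, 21.6% as lower. Cd74 was lower by the widest margin of the members, 2.15-fold (log2 -1.10, SE 0.20, edgeR adjusted p = 0.00043). This value averages groups that differed: the Cd74 gap was narrower in mCherry HFD. Against mCherry HFD it was shifted by log2 -1.37 in Tert HFD and -1.24 in TertCi HFD, as described below. H2-Aa was 1.54-fold lower (log2 -0.62, SE 0.15, adjusted p = 0.0035), H2-Ab1 by log2 -0.59 (SE 0.19) and H2-Eb1 by log2 -0.36 (SE 0.13). H2-DMa passed in the other direction (log2 0.50, SE 0.19, adjusted p = 0.0497). Ciita (log2 -0.17, SE 0.15) and H2-DMb1 (0.18, SE 0.20) did not pass. The Cd74 call was kept under every alternative, whereas H2-Aa was lost when unassigned macrophage clusters were also split between the subsets (log2 -0.45, adjusted p = 0.15). H2-Ab1, H2-Eb1 and H2-DMa were each lost under at least 2 settings. With 1 library left out, H2-DMa was lost without any high-fat library but Tert HFD rep136, H2-Eb1 without any Tert HFD or TertCi HFD library, and H2-Ab1 without Tert HFD rep134 or TertCi HFD rep138.

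Over all nuclei, class II RNA was higher on high-fat diet. Over all called nuclei, edgeR called 40.7% of 21101 genes with diet in p21+/mCherry mice, 22.3% as higher, and called 5 of the 7 members, all higher. Cd74 was 42.1 and 51.4 CPM in mCherry SD and 237 and 173 in mCherry HFD, so the groups did not overlap (log2 1.68, SE 0.37, adjusted p = 0.010). H2-Ab1 was 11.6 and 17.5 CPM on standard diet and 81.1 and 72.0 on high-fat diet, 3.85-fold higher (adjusted p = 0.0031). H2-DMb1, H2-Aa and H2-Eb1 were 3.28-, 3.06- and 2.74-fold higher. Ciita (log2 0.73, SE 0.32, adjusted p = 0.10) and H2-DMa (0.35, SE 0.21, adjusted p = 0.22) did not pass. The median of the members was 1.62 on the log2 scale against 0.05 over all genes tested. The Cd74 and H2-Aa calls were lost without mCherry SD rep144 or mCherry HFD rep128 (highest adjusted p 0.062 and 0.074).

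In such sums, more cells of a type and more RNA per cell cannot be told apart. Macrophage-like nuclei made up 3.46 and 4.43% of nuclei in mCherry SD and 42.1 and 43.5% in mCherry HFD. Adipocyte-like nuclei went from 38.1 and 39.5% to 1.70 and 1.29%, and progenitor-like nuclei from 7.93 and 8.14% to 26.2 and 22.4%. Free RNA moved the same way. Among barcodes under 100 UMIs, Cd74 was 50.7 and 77.5 CPM in mCherry SD and 587 and 549 in mCherry HFD, and H2-Aa 40.5 and 44.4 against 279 and 318. The part of free RNA in the diet values was not tested. Macrophage-like nuclei supplied 6.73 and 11.4% of all member UMIs in mCherry SD and 44.6 and 44.8% in mCherry HFD. In mCherry SD, adipocyte-like nuclei supplied 25.5 and 26.8% of member UMIs, at only 124 and 133 CPM summed over the 7 members. A large part of member UMIs in mCherry SD came from nuclei outside the classes described in this report, unnamed clusters among them. Several unnamed clusters scored best on the adipocyte marker list.

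**Figure D2:**
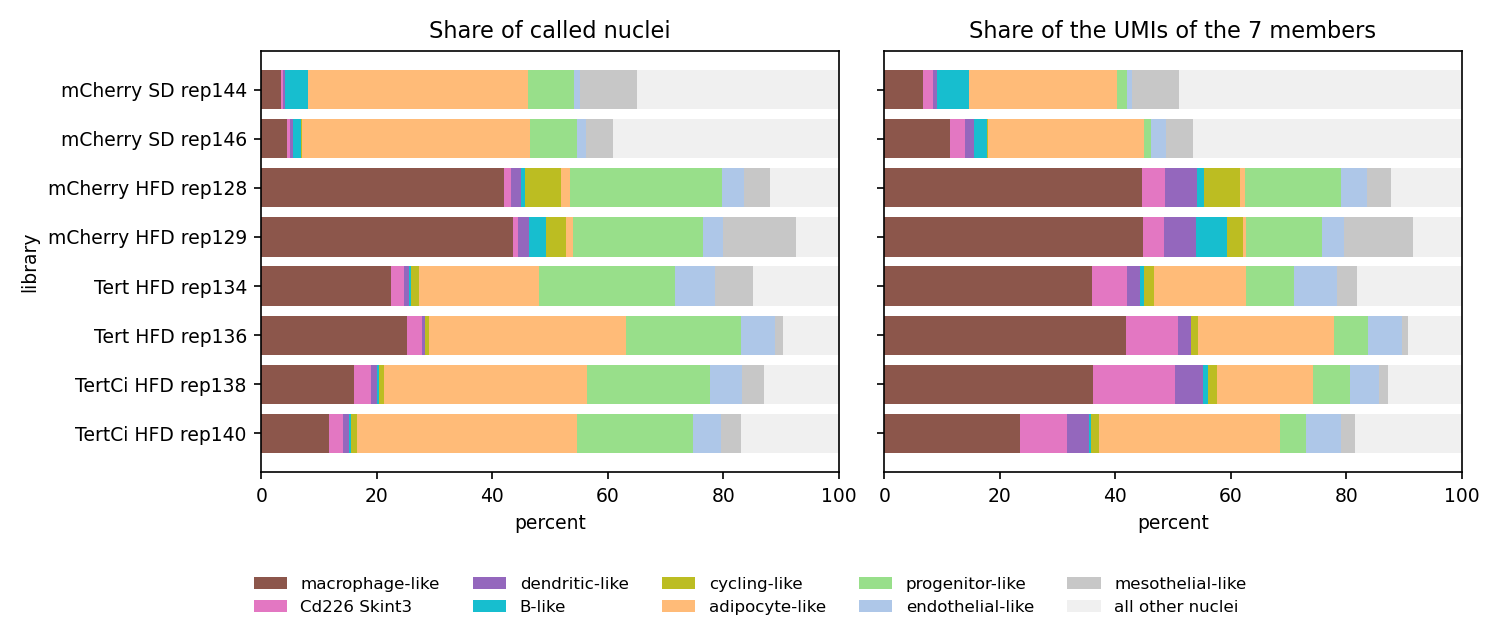
Share of called nuclei (left) and of the UMIs of the 7 members (right) from each class, in percent, 1 bar per library. Macrophage-like nuclei reach 42.1 and 43.5% of nuclei in mCherry HFD, and in all libraries supply a larger share of member UMIs than of nuclei.

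Within macrophage-like nuclei no member passed with diet. By edgeR 0 of 7 were called, against 19.7% of 12880 genes, with 0 at an unadjusted p under 0.05, and DESeq2 also called 0. Cd74 was 179 and 254 CPM in mCherry SD and 300.4 and 246 in mCherry HFD, so the groups overlapped. H2-Ab1 was 44.7 and 87.2 CPM against 105 and 103, a log2 difference of 0.43 with a 95% interval of -0.24 to 1.10. Ciita was 134.1 and 173 CPM against 142 and 135 (log2 -0.31, SE 0.31). The SD sums rest on 88 and 133 nuclei. When cycling, large peritoneal and Cd226 Skint3 nuclei were added to the class, 3 members passed: H2-Ab1 (log2 0.96), H2-DMa (0.85) and H2-Eb1 (0.64), with adjusted p 0.036 to 0.043 and 32.7% of 13879 genes called. Large peritoneal nuclei numbered 40 and 59 in mCherry SD, with 169.8 and 234 CPM summed over the 7 members, and 13 and 18 in mCherry HFD, with 915 and 439. Perivascular nuclei alone also gave 0 of 7 calls (13.4% of 8202 genes called), with Ciita at log2 -0.74 (SE 0.31, adjusted p = 0.12) as the 1 member under 0.05 unadjusted. Diet was not tested in lipid-associated nuclei, of which the mCherry SD libraries held 9 and 6.

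Ciita was the 1 member that passed with genotype in macrophage-like nuclei, and it was higher in both Tert genotypes than in mCherry HFD. It was 142 and 135 CPM in mCherry HFD, 190 and 284 in Tert HFD and 177 and 296 in TertCi HFD. The ranges of mCherry HFD and of either Tert genotype did not overlap, but the share of all genes without overlap was not counted. Ciita was 1.89-fold higher in Tert HFD (log2 0.92, SE 0.27, edgeR adjusted p = 0.036) and 1.88-fold in TertCi HFD (0.91, SE 0.28, adjusted p = 0.031). The test called 17.7% of 12880 genes for Tert and 23.7% for TertCi, 6.55 and 9.5% as higher. With 1 of 7 members called in each, the members were not called in either direction more often than all genes. Both comparisons share the mCherry HFD libraries. The makeup of the class moved with the groups. Its lipid-associated markers summed to 5503 and 4635 CPM in mCherry HFD, 1819 and 2447 in Tert HFD and 1541 and 1873 in TertCi HFD, and its perivascular markers to 3295 and 3491, 9107 and 4054.5, and 9177 and 6758. Ciita averaged 339 ± 117 CPM (SD, n = 8 libraries) in general, 122 ± 46.0 (n = 8) in perivascular and 119.9 ± 54.5 (n = 6) in lipid-associated nuclei. In general macrophage nuclei alone, which were not tested, Ciita was 317 and 247 CPM in mCherry HFD, 364 and 424 in Tert HFD and 361 and 561 in TertCi HFD. In the general cluster led by Ms4a7, only mCherry HFD rep128, mCherry HFD rep129 and Tert HFD rep134 (35 nuclei) held at least 20 nuclei. Ciita there ran from 250 to 317 CPM. Marker sums of other class II cells also moved in macrophage-like nuclei. The 9 B cell markers summed to 144.1 and 191 CPM in mCherry HFD, 464 and 257 in Tert HFD and 651 and 575 in TertCi HFD, nearly all from Bank1 and Ralgps2. The B cell markers Cd79a and Ms4a1 stayed at or near 0, with at most 1.13 and 3.07 CPM in any high-fat library. The 10 conventional dendritic markers summed to 1931 and 1707, 1117.5 and 1062, and 997 and 853 CPM. Most of that difference was Cadm1 (1493 and 1295, 402 and 566, and 413 and 298), while Xcr1, Clec9a and Flt3 were at most 0.512, 3.33 and 3.18. Other genes of that list were higher in the Tert genotypes: Mgl2 was 11.3 and 16.4, 92.5 and 65.2, and 63.0 and 104 CPM, and Zbtb46 and Cd209a likewise did not overlap with mCherry HFD. The part of makeup in the Ciita values was otherwise not tested. The Tert call was lost without mCherry HFD rep128, mCherry HFD rep129 or Tert HFD rep136 (log2 0.57 without the last, adjusted p = 0.072), with doublets kept and with only the 2 groups fitted. The TertCi call was lost without mCherry HFD rep128, mCherry HFD rep129 or TertCi HFD rep140 (log2 0.55 without the last, adjusted p = 0.20) and with doublets kept. Ciita overlaps Dexi in the GENCODE annotation of GRCm38, and reads of the overlap may be split between them.

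The chains and Cd74 did not follow Ciita. Cd74 was 378 and 133 CPM in the 2 Tert HFD libraries, above and below both mCherry HFD values, and 253 and 244 in TertCi HFD. H2-Aa was 203 and 67.5 CPM in Tert HFD, 168 and 154 in mCherry HFD and 174 and 166 in TertCi HFD. H2-Ab1 in Tert HFD was 95.0 and 37.4 CPM, and H2-Eb1 175 and 94.6. In each of these genes Tert HFD rep134 held the higher value, as it did for Cd74 in free RNA (309 CPM against 56.8 in Tert HFD rep136). These 2 libraries also differed in makeup: Tert HFD rep134 held 426 perivascular and 167 lipid-associated of 784 macrophage-like nuclei, and Tert HFD rep136 held 35 and 428 of 804. Cd74 averaged 263 ± 74.0 CPM (SD, n = 8 libraries) in perivascular and 120.02 ± 57.8 (n = 6) in lipid-associated nuclei. The part of makeup and free RNA in the gap was not tested. Without Tert HFD rep134, Cd74 was lower in Tert HFD (log2 -0.79, adjusted p = 0.020), and without Tert HFD rep136 it was higher (log2 0.57, adjusted p = 0.026). The direction for Cd74 thus depended on 1 library, and its value over both was log2 0.03 (SE 0.30). H2-DMa had the lowest unadjusted p after Ciita in both comparisons (log2 -0.59 and -0.53, adjusted p 0.12 and 0.15). It was 37.4 and 32.0 CPM in mCherry HFD, 24.0 and 17.5 in Tert HFD and 22.9 and 20.4 in TertCi HFD.

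**Figure D3:**
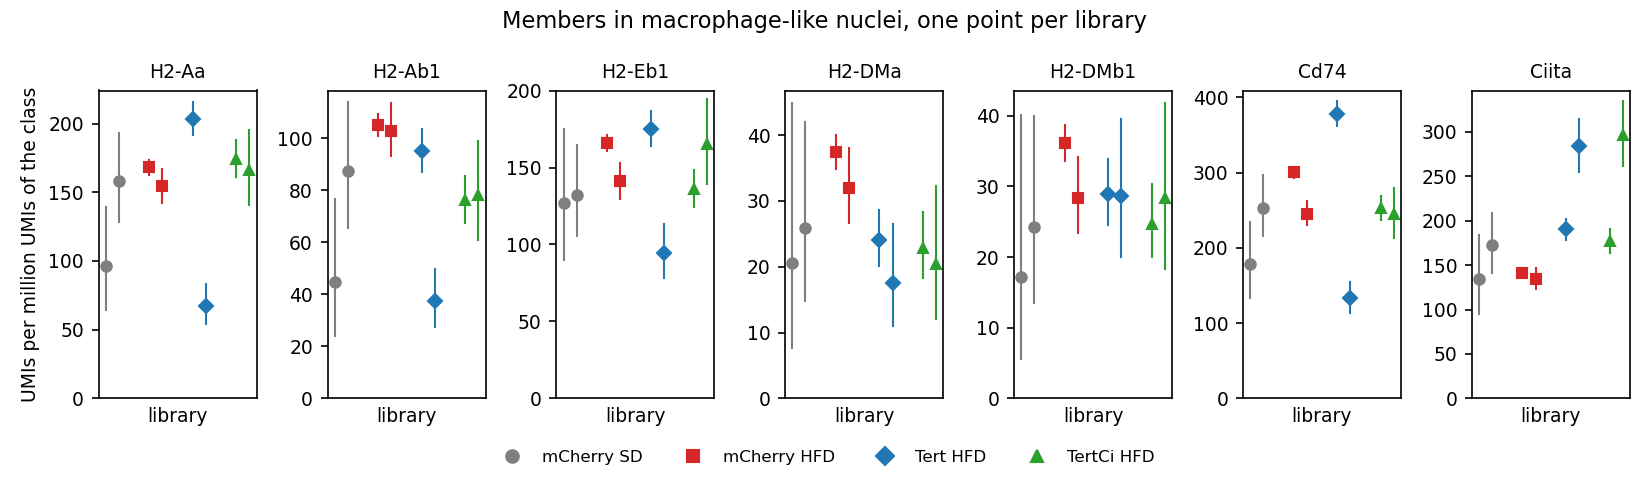
Level of each member in macrophage-like nuclei (y axis, CPM of the class), 1 point per library with its exact 95% Poisson interval, which covers counting error only. For Ciita the Tert HFD and TertCi HFD points lie above both mCherry HFD points, and for Cd74 the 2 Tert HFD points, 378 and 133, lie on either side of the others.

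Tert HFD and TertCi HFD did not differ detectably from each other in macrophage-like nuclei. By edgeR 0 of 7 members and 0% of 12880 genes passed, with 0 members at an unadjusted p under 0.05, and DESeq2 called 0 members. The Ciita difference was log2 0.01 (SE 0.28, 95% interval -0.54 to 0.55). In lipid-associated, perivascular and dendritic-like nuclei and over all nuclei, 0 members were called between these 2 genotypes by edgeR or DESeq2, with 0, 0.0366, 0.102 and 0% of genes called by edgeR and 0, 1, 1 and 0 members at an unadjusted p under 0.05. In both classes that member was Cd74. The dendritic-like values rest on 1 Tert HFD library, rep134 with 27 nuclei, which was assumed to vary like the other groups.

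The macrophage-like nuclei of mCherry HFD lay mostly in other clusters than those of the remaining groups. Clusters led by Gpnmb (lipid-associated), Ms4a7 (general) and Vsig4 (perivascular) held most nuclei of mCherry HFD. Clusters led by Tmem267 (lipid-associated), by 2 unnamed genes and Cd163 (general) and by F13a1 (perivascular) held most nuclei of the other groups. Values within a subset therefore compare different clusters.

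In lipid-associated nuclei, which lay mostly in different clusters between groups, Ciita was higher in both Tert genotypes and Cd74 lower in TertCi HFD. Ciita was 62.2 and 52.3 CPM in mCherry HFD, 125 and 197 in Tert HFD and 135 and 148 in TertCi HFD. It was 2.98-fold higher in Tert HFD (log2 1.58, SE 0.27, edgeR adjusted p = 0.0092; 9.58% of 9566 genes called) and 2.61-fold in TertCi HFD (1.39, SE 0.29, adjusted p = 0.016; 11.1% called). Cd74 was 209 and 158 CPM in mCherry HFD, 135.5 and 61.6 in Tert HFD and 89.5 and 67.1 in TertCi HFD. It passed in TertCi HFD (log2 -1.06, SE 0.28, adjusted p = 0.038) and not in Tert HFD (-0.79, SE 0.26, adjusted p = 0.083). H2-Ab1 was 76.6 and 75.1 CPM in mCherry HFD and 31.2 and 23.5 in TertCi HFD (log2 -1.28, adjusted p = 0.054). Cd74 in free RNA was lower in the same libraries (587 and 549 CPM in mCherry HFD, 309 and 56.8 in Tert HFD, 113 and 86.7 in TertCi HFD), and its part was not tested. Both Ciita calls depended on which nuclei counted as lipid-associated. In the Gpnmb-led cluster, only mCherry HFD rep128, mCherry HFD rep129 and Tert HFD rep134 (49 nuclei) held at least 20 nuclei. Ciita there ran from 25.2 to 62.1 CPM, so Tert HFD rep134 was not above mCherry HFD within that cluster. With a finer clustering the Ciita values were 0.10 and -0.34, and with unassigned macrophage clusters split between the subsets they were 0.33 and 0.11, none of them called. The TertCi call for Ciita was also lost with class II genes in the clustering (log2 1.11, adjusted p = 0.062) and without TertCi HFD rep138 or TertCi HFD rep140 (highest adjusted p = 0.17). The Tert call for Ciita was kept with any 1 library left out. Cd74 in TertCi HFD with the finer and the split clusters was -1.63 and -1.59, both called. That Cd74 call was lost without mCherry HFD rep128, TertCi HFD rep138 or TertCi HFD rep140 (highest adjusted p = 0.23) and with doublets kept.

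In perivascular nuclei 1 of 7 members passed in each genotype, a share near that of all genes called. Cd74 was 268 and 211 CPM in mCherry HFD and 425 and 254 in Tert HFD, ranges that overlapped (log2 0.70, SE 0.21, adjusted p = 0.022; 11.6% of 8202 genes called). Without Tert HFD rep134 its log2 difference was 0.04, and the call was also lost without either mCherry HFD library, with DESeq2 and under 4 other settings. The Tert HFD rep136 sum rests on 35 nuclei. Ciita was 89.1 and 74.1 CPM in mCherry HFD and 101 and 216 in TertCi HFD (log2 0.86, SE 0.26, adjusted p = 0.021; 19.2% called). Without TertCi HFD rep140 it was 0.42 and not called, and it was also lost without mCherry HFD rep129, with DESeq2 and with doublets kept.

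The genotype difference in Cd74 itself differed between the 2 macrophage subsets. In mCherry HFD, Cd74 was 268 and 211 CPM in perivascular and 209 and 158 in lipid-associated nuclei. In Tert HFD it was 425 and 254 against 135.5 and 61.6, and in TertCi HFD 237 and 284 against 89.5 and 67.1. All 6 libraries had less Cd74 in the lipid-associated subset, and the gap was wider in the 4 libraries of the Tert genotypes. As described above, each subset lay mostly in different clusters in mCherry HFD, so the gap compares unlike nuclei between groups. Cd74 in free RNA was 587 and 549 CPM in mCherry HFD, 309 and 56.8 in Tert HFD and 113 and 86.7 in TertCi HFD. The part of clusters and free RNA in the gap was not tested. The interaction term was -1.37 (log2, SE 0.23, edgeR adjusted p = 2.8e-07) for Tert and -1.24 (SE 0.24, adjusted p = 1.9e-05) for TertCi, with 2.72 and 3.43% of 10634 genes called. For TertCi the terms of H2-Ab1 (-1.17, SE 0.33, adjusted p = 0.016) and H2-Aa (-0.84, SE 0.25, adjusted p = 0.031) also passed. Both were lost with DESeq2, with doublets kept and without any 1 of the 4 mCherry HFD and TertCi HFD libraries. The Cd74 terms were called under every setting with all libraries. Without mCherry HFD rep128 neither was called (adjusted p 0.075 and 0.093), and without Tert HFD rep134 the Tert term was not (-1.28, adjusted p = 0.19). In simulated counts with 1 common spread for all genes, this test recovered 12% of genes changed 2-fold and 78% of genes changed 4-fold.

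**Figure D4:**
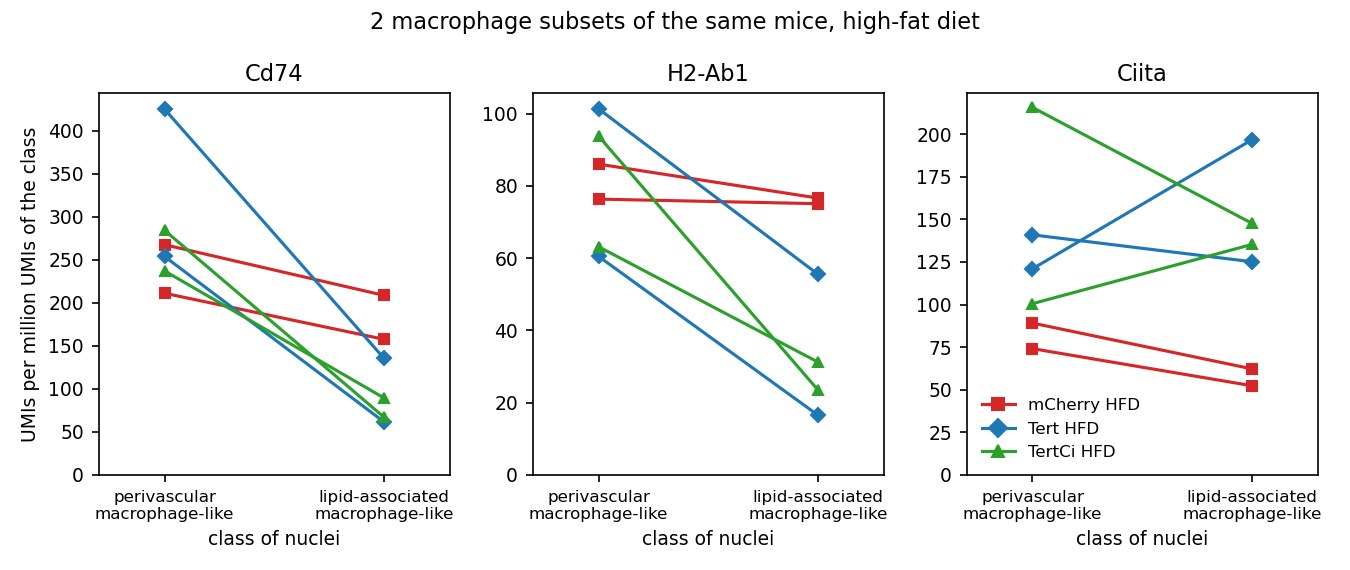
Cd74, H2-Ab1 and Ciita in perivascular and lipid-associated macrophage-like nuclei (y axis, CPM of the class); a line joins the 2 subsets of 1 high-fat library. The Cd74 lines of Tert HFD and TertCi HFD drop further than those of mCherry HFD, which run from 268 to 209 and from 211 to 158.

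In dendritic-like nuclei of TertCi HFD, 3 members were lower than in mCherry HFD. The class held 328 nuclei, and 5 libraries reached 20 nuclei, of which 1 was Tert HFD and none mCherry SD. The mCherry HFD sums rest on 126 and 55 nuclei and the TertCi HFD sums on 56 and 23. H2-DMa did not pass the filter on low counts, so 6 members were tested. H2-Ab1 was 325 and 296 CPM in mCherry HFD and 135.6 and 52.3 in TertCi HFD (log2 -1.44, SE 0.34, edgeR adjusted p = 0.0075). H2-Eb1 was 479 and 452 CPM against 218 and 111 (log2 -1.26, SE 0.30, adjusted p = 0.0072). Cd74 was 735 and 561 CPM against 311 and 157 (log2 -1.25, SE 0.30, adjusted p = 0.0076). The ranges did not overlap in these 3 genes, nor in the uncalled H2-Aa, and the share of all genes without overlap was not counted. In this test 14.1% of 5871 genes were called, 6.18% as lower. H2-Aa was 470 and 374 CPM against 304 and 248 (log2 -0.43, adjusted p = 0.35), and Ciita 409 and 385 against 407 and 288 (log2 0.01, SE 0.26).

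DESeq2 called 0 of these members (adjusted p 0.051 to 0.087), and all 3 calls were lost without mCherry HFD rep128 (adjusted p 0.17 to 0.24). The makeup of the class also moved with the group. Adipocyte markers (8 genes, all detected) summed to 448 and 229 CPM in dendritic-like nuclei of mCherry HFD and to 1773 and 3823 in TertCi HFD. Mature dendritic-like nuclei, which lead in Ccr7-type markers, numbered 22 and 9 in mCherry HFD and at most 2 in any other library. Free RNA was also lower in TertCi HFD for the 3 called members, and likewise for the uncalled H2-Aa and H2-DMb1. Among barcodes under 100 UMIs, Cd74 was 587 and 549 CPM in mCherry HFD and 113 and 86.7 in TertCi HFD. H2-Ab1 was 219 and 284 against 50.2 and 41.6 there, and H2-Eb1 287 and 302 against 64.1 and 69.0, while Ciita was 114 and 71.1 against 76.9 and 69.9. The uncalled H2-Aa was 279 and 318 against 70.0 and 64.6, and the uncalled H2-DMb1 47.5 and 56.8 against 10.7 and 14.2. The part of these 3 measures in the result was not tested. The 10 conventional dendritic markers summed to 6665 and 7017 CPM in mCherry HFD and to 7475 and 4366 in TertCi HFD. Tert HFD rep134 (27 nuclei) had 143 CPM of H2-Ab1, 232 of H2-Eb1 and 473 of Cd74. No member passed there (0 of 6 by edgeR and by DESeq2, 2 at an unadjusted p under 0.05, 3.41% of genes called), with the lone library assumed to vary like the other groups. Diet entered no test at 20 nuclei per library. With nuclei of at least 1000 UMIs in every library both mCherry SD libraries entered, and H2-Aa, H2-Ab1, H2-Eb1 and Cd74 passed as higher on high-fat diet (log2 1.45 to 2.34, adjusted p 0.0031 to 0.043), with 9.74% of 5854 genes called. Free RNA of Cd74 and H2-Aa moved the same way with diet, and its part was not tested.

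**Figure D5:**
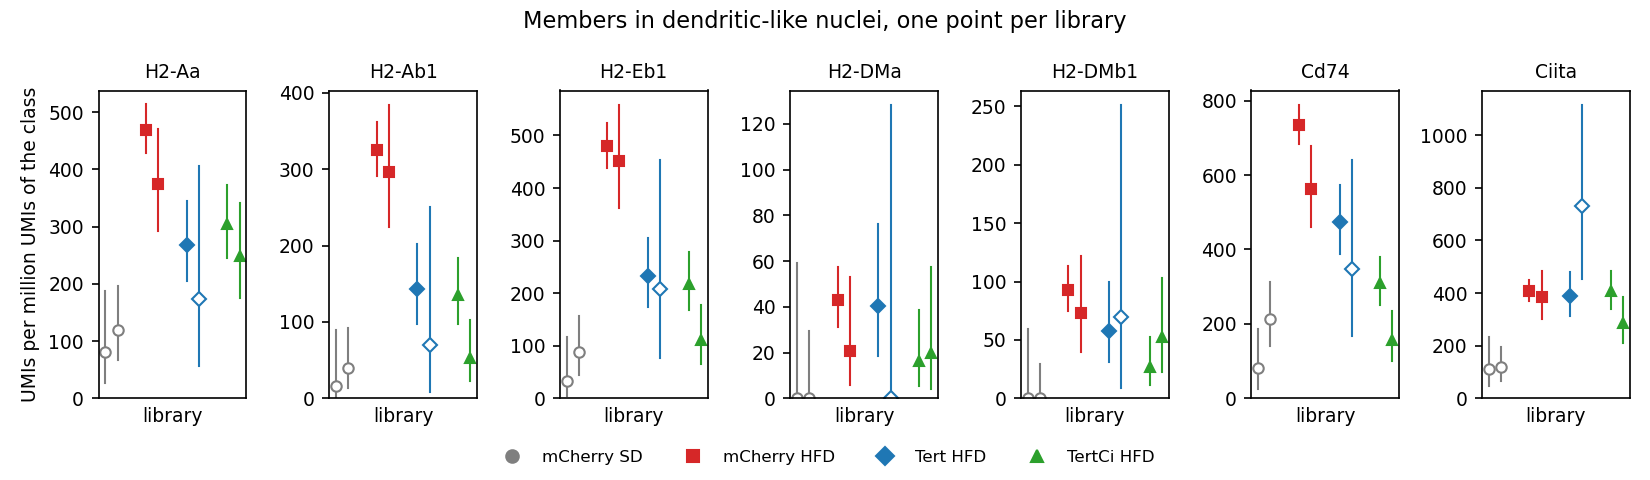
Level of each member in dendritic-like nuclei (y axis, CPM of the class), 1 point per library with its exact 95% Poisson interval; open symbols are libraries under 20 nuclei, which entered no test. H2-Ab1, H2-Eb1 and Cd74 lie lower in both TertCi HFD libraries than in mCherry HFD, and Ciita does not separate the groups.

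Over all called nuclei, 4 of 7 members were lower in TertCi HFD than in mCherry HFD, and 2 of 7 in Tert HFD. In TertCi HFD 35.5% of 21101 genes were called, 19.4% as lower. H2-Ab1 was 22.4 and 18.8 CPM against 81.1 and 72.0 (log2 -1.43, SE 0.31, edgeR adjusted p = 0.012), and Cd74 65.0 and 50.3 against 237 and 173 (-1.36, SE 0.37, adjusted p = 0.024). H2-Eb1 (-1.11) and H2-DMb1 (-0.76) also passed. In Tert HFD only H2-Ab1 (-1.13, adjusted p = 0.039) and H2-Eb1 (-0.80, adjusted p = 0.041) passed, with 21.8% of genes called and 10.9% as lower, so that the share of members called lay near that of all genes. These 2 calls were lost without any 1 of 7 libraries, the exception being Tert HFD rep134, and the 4 TertCi calls were lost without mCherry HFD rep128, TertCi HFD rep138 or TertCi HFD rep140. With 1000 UMIs required of a nucleus in every library, both Tert calls and the TertCi calls of H2-Eb1, H2-DMb1 and Cd74 were lost, leaving H2-Ab1 in TertCi HFD, and both Tert calls were also lost with only the 2 groups fitted. Macrophage-like nuclei were 22.5 and 25.3% of nuclei in Tert HFD and 15.96 and 11.7% in TertCi HFD, against 42.1 and 43.5% in mCherry HFD. Free RNA of H2-Ab1 and Cd74 was lower in TertCi HFD too, by the values given for dendritic-like nuclei, and free Cd74 in mCherry HFD exceeded its level in called nuclei. In Tert HFD free H2-Ab1 was 116 and 24.6 CPM. The part of the macrophage share and of free RNA was not tested. Ciita did not pass in either genotype (log2 0.46, SE 0.32, and 0.05, SE 0.32).

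H2-DMa behaved apart from the other members. Over 54 sums of a library and an immune class, its log2 CPM correlated at r = 0.35 with the mean of the other 6, while the others gave 0.75 (Ciita) to 0.95 (H2-Eb1). These sums share libraries, depth and free RNA, so the correlations are a description. H2-DMa was also low, with immune class means of 15.2 to 47.4 CPM, and counting error in small sums can lower r. H2-DMb1, with class means of 8.17 to 119.7 CPM, gave r = 0.77. The part of counting error was not tested. H2-DMa was 10.1 to 30.8 CPM in adipocyte-like and 17.5 to 37.4 in macrophage-like nuclei, ranges that overlap. In the GENCODE annotation of GRCm38, H2-DMa overlaps Brd2 on the other strand and H2-Eb1 overlaps the antisense gene Gm20513, and H2-DMb1 has the near-identical copy H2-DMb2. Counts of these members may therefore be split or mixed.

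The genes most like the members over the same 54 sums, among 9163 with a mean of at least 10 CPM, were led by Lyn (r = 0.86), a kinase of myeloid and B cell receptors. Next came F630206G17Rik (0.82), Hps3 (0.82), Gm20513 (0.82), Dapp1 (0.81), Actr3 (0.81), Themis2 (0.81), Aim2 (0.81), Pip4k2a (0.80) and Kctd12 (0.79). Gm20513 overlaps the member H2-Eb1, so its counts may include reads of that member. Gm20513 and F630206G17Rik had means of 15.8 and 12.4 CPM, near the floor of 10. Lyn was 1615 CPM in Cd226 Skint3, 1135 in general macrophage, 1081 in dendritic-like, 969.5 in perivascular, 809 in B-like, 709 in lipid-associated and 353 in T and NK-like nuclei, as means over libraries.

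Other genes of the pathway passed with diet and genotype in the same macrophage-like sums. Of 6 peptide-generating genes, 5 were called higher with diet, 3 lower in Tert HFD and 5 lower in TertCi HFD, with list medians of 1.80, -0.76 and -1.34 against 0.11, -0.05 and -0.08 over all genes. Of all genes, 11% were called higher with diet, 11.2% lower in Tert HFD and 14.2% lower in TertCi HFD. Ctsl, a lysosomal protease, had log2 values of 4.01, -2.38 and -3.09 in the 3 comparisons, and Ctss, the protease that trims Cd74, 1.41, -0.55 and -0.80. Ifi30, a thiol reductase that unfolds antigens, passed with diet (2.19) and TertCi (-1.88). The 9 lipid-associated markers summed to 299 and 376 CPM in mCherry SD, 5503 and 4635 in mCherry HFD, 1819 and 2447 in Tert HFD and 1541 and 1873 in TertCi HFD. Their part in the protease values was not tested.

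The co-stimulatory genes that passed did so in the other direction. Of 5 tested of 6, 3 were called lower with diet, namely Icosl (log2 -1.97), Cd86 (-1.85) and Cd80 (-1.32), ligands that give T cells their second signal, against 8.76% of all genes called lower with diet. In Tert HFD 1 of the 5, Cd86, was called higher (1.35), and in TertCi HFD 3 of the 5 were: Cd86 was at 1.69 there, and Icosl (1.39) and Cd80 (1.03) also passed, against 6.55 and 9.5% of all genes called higher. Perivascular markers moved the same way in these sums, at 9272 and 11493 CPM in mCherry SD, 3295 and 3491 in mCherry HFD, 9107 and 4054.5 in Tert HFD and 9177 and 6758 in TertCi HFD, and their part was not tested. In the lists that follow, 0 to 2 genes were called per comparison, to be read against 19.7, 17.7 and 23.7% of all genes called in either direction with diet, Tert and TertCi. Of the 6 interferon-gamma signalling genes, Jak1, a kinase of the receptor, passed in all 3 comparisons (-0.83, 0.68 and 0.78) and Ifngr2 with diet (0.97). Of the promoter-binding factors that Ciita docks on, 6 of 7 were tested. Nfya, a subunit of the Y box factor, was called higher with diet (1.06) and lower in Tert HFD (-0.84), Nfyc lower with diet (-0.68) and Creb1 higher in TertCi HFD (0.51). Rfx5 and Rfxap, subunits of the X box factor, were not called in any of the 3. Of 4 surface turnover genes, Marchf1, a ligase that sends surface class II to degradation, was called higher in TertCi HFD (0.81) and no other gene passed in any comparison. Of 7 class I genes, H2-D1 passed with diet (0.72) and TertCi (-1.31) and H2-K1 with Tert (0.65). The other class II genes, H2-DMb2, H2-Oa, H2-Ob and H2-Eb2, did not reach the filter on low counts in macrophage-like nuclei.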

How the data were processed

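The deposited matrices hold UMI counts per gene and barcode. The submitters' processing notes name Cell Ranger 5.0.1, bcl2fastq 2.20.0 and mm39, while the matrix header names version 7.1.0, and the authors' filters on nuclei were not given in the sources used here. Nuclei were barcodes with at least 0.1 times the UMIs of the 99th percentile of the top 5000 barcodes (minimum 500), 300 genes and at most 5% mitochondrial UMIs. Doublets were scored with scrublet in scanpy 1.11.5, whose own threshold marked at most 0.154% of a library, so the highest-scoring 0.8% per 1000 nuclei were removed instead. Nuclei were clustered with Leiden (2000 genes, 30 components, resolution 1), immune nuclei again, and clusters were named from marker lists, the class II genes being left out.

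UMI counts were summed per library and class and tested with edgeR 4.0.16 (TMM, filterByExpr, quasi-likelihood test, Benjamini-Hochberg over all genes; SE from the F statistic). Classes of the same mice were compared with the library as a block. DESeq2 1.42.0, other scalings, filters, thresholds and clusterings were alternatives. In simulated counts the test recovered 100% of genes changed 2-fold for Tert in macrophage-like nuclei and 94% between dendritic-like and macrophage-like nuclei. The simulation gave every gene 1 common spread and changed only genes above a minimum level. Its shares therefore do not give the power for members at low levels or with a wide spread between replicates. The members, the pathway lists and the rule for named genes (the members, called pathway genes and the 10 most similar genes) were chosen with earlier results of these data known.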

Additional observations from a re-analysis of the deposited data

Results flagged for a closer look

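Of the results above, 4 differed between macrophage subsets by the test of the difference itself, the term for lipid-associated minus perivascular nuclei between a Tert genotype and mCherry HFD. For Cd74, the invariant chain, this term was -1.37 (log2) for Tert and -1.24 for TertCi by edgeR. For the alpha chain H2-Aa it was -0.84 and for the beta chain H2-Ab1 -1.17, both for TertCi. The H2-Aa and H2-Ab1 terms were lost with DESeq2, with doublets kept and without any 1 of the 4 mCherry HFD and TertCi HFD libraries, and the H2-Aa term also without the filter on low counts. Without mCherry HFD rep128 neither Cd74 term was called, and without Tert HFD rep134 the Tert term was not. Both subsets lay mostly in different clusters in mCherry HFD than in the Tert genotypes. Cd74 in free RNA was also higher in mCherry HFD, and the part of both in these terms was not tested.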

How the results depend on the processing

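Of 41 called values of single members, 14 were kept under every alternative setting and every left-out library. These were diet calls over all nuclei and contrasts between classes, including the 6 of the Cd226 Skint3 contrast added after its values had been seen. No genotype or interaction call was among them. Of 124 values that were not called, the sign changed in 199 of 2111 refits, and 5 of those refits were called. Mice of different groups could not be paired, since no 2 groups share replicate numbers and the labels do not say which mice shared a batch. The number of called members is given below for each setting that moved it by more than 1.5 times, and the cause was not tested. The percentage that closes each sentence is the range, over those comparisons, of the share of all genes called. With DESeq2 it was 0 for perivascular Tert, perivascular TertCi and dendritic TertCi, 3 for lipid-associated minus perivascular and 1 for the TertCi interaction (1.03 to 39.7%). Without a filter on low counts it was 3 for lipid-associated Tert, 2 for perivascular Tert, 4 for Tert over all nuclei, 1 for Tert against TertCi over all nuclei and 2 for B minus macrophage (1.45 to 18%). With 1000 UMIs in every library it was 1 for diet in macrophage-like and in perivascular nuclei, 2 for lipid-associated Tert, 0 for Tert and 1 for TertCi over all nuclei, 1 for B minus macrophage and 4 for the Tert interaction (1.47 to 40.2%). With doublets kept it was 0 for Tert and TertCi in macrophage-like and in perivascular nuclei, 1 for lipid-associated TertCi and 1 for the TertCi interaction (2.07 to 24.5%). With class II genes in the clustering it was 3 for lipid-associated Tert, 1 for lipid-associated TertCi, 2 for perivascular Tert, 3 for lipid-associated minus perivascular and 3 for the Tert interaction (1.55 to 42.4%). With a finer clustering it was 0 for lipid-associated Tert, 1 for perivascular diet, 2 and 3 for perivascular Tert and TertCi, and 5 for both interactions (4.24 to 19.4%, of which 4.24 and 5.4% for the interactions). With only the 2 groups fitted it was 0 for Tert in macrophage-like nuclei and over all nuclei, and 2 for perivascular and dendritic Tert (7.17 to 15.9%). The next 2 settings were added after seeing the data. With unassigned macrophage clusters split between the subsets it was 2 for lipid-associated and perivascular Tert, 3 for perivascular TertCi, 2 for lipid-associated minus perivascular and 5 for both interactions (3.1 to 39.4%, of which 3.1 and 5.6% for the interactions). With the wide macrophage class it was 3 for diet (32.7%).

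Leaving out 1 library gave, for diet, Tert and TertCi, 0 to 0, 0 to 4 and 0 to 1 called members in macrophage-like nuclei, 0 to 1, 0 to 3 and 0 to 1 in perivascular nuclei, and 3 to 5, 0 to 4 and 0 to 5 over all nuclei. For Tert and TertCi it gave 1 to 4 and 0 to 3 in lipid-associated and 0 to 2 and 0 to 4 in dendritic-like nuclei, and 0 to 1 and 0 to 4 in the interactions. Between classes it gave 4 to 6 for dendritic, 0 to 1 for B, 6 to 6 for Cd226 Skint3 and 2 to 5 for lipid-associated minus perivascular, and Tert against TertCi gave 0 throughout.

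The sign changed in 6 refits of a value that was called before or after. For Cd74 in macrophage-like nuclei, Tert was -0.79 without Tert HFD rep134 against 0.57, the sign of both libraries together, without Tert HFD rep136. For Ciita, TertCi in lipid-associated nuclei was -0.34 with the finer clustering. The Ciita interaction was -1.55 and -2.02 for Tert and TertCi with the finer clustering and -1.46 and -1.55 with the split clusters, all 4 called. Few nuclei limit several sums: libraries held 8 to 126 dendritic-like and 2 to 102 B-like nuclei, and the mCherry SD libraries 88 and 133 macrophage-like nuclei.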
